A study of Mus musculus with 47 samples.

Results

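The non-coding RefSeq transcripts of the P19 labelling experiment were the rows whose name carried an NR_ accession and whose interval overlapped no interval of a protein-coding (NM_) transcript on the same strand. Identical intervals were counted once, which gave 8333 intervals of 2401 transcripts among 30432 distinct intervals in the files. All of them lay on the minus strand, the only strand on which the files listed NR_ rows. Overlaps among themselves were present for 376 of the 8333, and 69 had a protein-coding transcript on the opposite strand. At least 1 read was counted in 2239 of the 8333 intervals over all 47 libraries, and 6094 held none.

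These RNAs do different work in the cell. Small nucleolar RNAs guide the chemical modification of ribosomal RNA, the H/ACA kind (gene names beginning with Snora) towards pseudouridine and the C/D kind (Snord) towards 2′-O-methylation, and most vertebrate members are cut from the introns of host genes. Long non-coding RNAs include nuclear transcripts such as Malat1, which gathers in nuclear speckles, and transcripts expressed in the developing nervous system such as Miat, Pantr1 and Rmst. SLAM-seq feeds cells 4-thiouridine (4sU), a uridine analogue that is built into new RNA and is sequenced as C, and the share of such T-to-C conversions follows synthesis during labelling and decay after its removal.

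Wild-type P19 cells, a mouse embryonal carcinoma line, were sampled undifferentiated (D0) or after 6 days in neuronal medium with 500 nM retinoic acid (D6). D0 cells received 20 µM and D6 cells 500 µM 4sU, so dose and state cannot be told apart in any comparison of labelling, nor in the comparison of read levels after 15 h of 4sU. The anabolic assay followed uptake after 4sU was added and the catabolic assay followed loss after 15 h of labelling, each at the labelled time points T0, T1, T3 and T9. There were 16 groups, 15 with 3 libraries and 1 (D6, catabolic T3) with 2, which the submitters described as biological duplicates or triplicates. Libraries are called here by the numbers in their titles. The 12 libraries used to compare read levels were the T0 libraries of both assays, which are cells without 4sU and cells after 15 h of 4sU. As 3′ end libraries of bulk RNA, they cannot tell fewer cells with a transcript from less of it per cell.

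Levels are given as CPM, read counts scaled to a common library size. Reads in all intervals numbered 1489528 to 11677046 per library (median 5750402), and the non-coding intervals took 1.32 to 2.89% of them. Without 4sU this share was 1.65% ± 0.18 at D0 and 2.03% ± 0.10 at D6 (SD, n = 3 each), and after 15 h it was 1.91% ± 0.19 and 2.49% ± 0.10. Without Malat1 the share was 1.40% ± 0.16 and 1.38% ± 0.07 without 4sU, and 1.73% ± 0.18 and 1.71% ± 0.09 after 15 h, with overlapping libraries. Markers of the cells followed the labels. The 8 markers of undifferentiated cells summed to 1558 to 2207 CPM at D0 and 11.4 to 38.5 at D6 without 4sU, with D6 below D0 in all libraries for 6 of them. The 8 neuronal markers summed to 585 to 657 and 9764 to 10599.9, with 8 of 8 higher. The 12 markers of glia, endoderm, mesoderm, fibroblasts and endothelium summed to 148 to 218 and 140 to 149, with 7 of 12 at 0 reads at D0 and 8 of 12 at D6. After 15 h of 4sU these 12 summed to 122 to 206 at D0 and 49.1 to 95 at D6, without overlap. Slc1a3 made up most of both sums (mean 148 and 74.6 CPM).

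Long non-coding RNAs made up 4267 of the 8333 intervals and 44.6% of the reads on them. Non-coding variants of protein-coding genes made up 2744 intervals and 32.2% of the reads, and 524 pseudogene intervals took 9.33%. The 61 intervals of small nucleolar and Cajal body RNAs held 3.25% of the reads and 509 microRNA intervals 0.725%, while 33 ribosomal RNA intervals held none. Malat1 alone (chr19:5795690-5802671) had 1088255 reads, 22.4% of all reads on the non-coding intervals. It was followed by Ankrd11 (342162), Nutf2-ps1 (334450), Rps15a-ps6 (215799) and 2900060B14Rik (137981). Next came Brd2 (101566), Gm12338 (91930), Cep57 (82090), 5730408K05Rik (65670) and Dhx15 (64225). The intervals of Ankrd11, Nutf2-ps1, Brd2, Cep57 and Dhx15 lie on exons of coding transcripts in the GENCODE annotation, as do 3145 of the 8333, and their reads cannot be told apart from the coding transcript's.

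Outside protein-coding genes, last exons held reads more often than other exons. Of 1456 intervals that are a last exon outside protein-coding genes, 37.1% held a read, against 10.6% of the 3269 other exons outside such genes. On exons of coding transcripts 38.7% of the 3145 intervals held a read, with 43.6% of all reads on the non-coding intervals. Of the 573 intervals with enough reads for a test of levels, 261 were last exons and 312 other exons. In last exons outside protein-coding genes, a polyadenylation signal was sought, AATAAA or ATTAAA on the transcribed strand within the last 40 bases. It was found in 73 of the 119 of them with enough reads for a test and a sequence (61.3%). Of the 992 of them that had a sequence and too few reads, 49.2% held it. The signal of Malat1, in capitals in the last 60 bases of its interval (chr19:5795690-5795749, GRCm38, minus strand, written 5′ to 3′), ends 16 bases before the interval's end. It is shown because Malat1 holds more reads than any other non-coding interval and was called to differ between the states in label loss.
Malat1 end: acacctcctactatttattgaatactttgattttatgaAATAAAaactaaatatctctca

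The sequences of 10 small nucleolar RNAs are shown because this class had the largest share of calls between D0 and D6. They were read from GENCODE transcripts on the GRCm38 assembly and run 5′ to 3′, and their T counts equalled those deposited for the same intervals. Capitals mark the ACA box of the 9 H/ACA members, which lies within the last 10 bases, and the CTGA sequence (box D) of the C/D member Snord89. On the transcribed strand, ACA in the last 10 bases was present in 15 of 15 H/ACA intervals with a sequence and in 23.0% of all 7544 non-coding intervals with one. CTGA there was present in 33 of 33 C/D intervals and in 7.65% of all. The intervals are, in the order shown, chr4:132352322-132352526, chr1:86351170-86351285, chr8:70895759-70895856, chr10:23785347-23785451, chr3:123507937-123508066, chr6:115807975-115808103, chr2:26639190-26639321, chrX:37082912-37083033, chr11:6620319-6620419 and chr1:39548747-39548840, all on the minus strand.
Snora73b: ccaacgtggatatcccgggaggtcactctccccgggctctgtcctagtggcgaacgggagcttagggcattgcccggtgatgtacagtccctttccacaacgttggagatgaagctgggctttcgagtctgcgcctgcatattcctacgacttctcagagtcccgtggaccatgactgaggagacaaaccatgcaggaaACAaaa
Snora75: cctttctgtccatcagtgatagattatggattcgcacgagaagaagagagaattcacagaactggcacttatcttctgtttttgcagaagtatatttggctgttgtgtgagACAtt
Snora68: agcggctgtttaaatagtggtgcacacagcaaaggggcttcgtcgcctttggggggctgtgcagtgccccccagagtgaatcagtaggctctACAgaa
Snora33: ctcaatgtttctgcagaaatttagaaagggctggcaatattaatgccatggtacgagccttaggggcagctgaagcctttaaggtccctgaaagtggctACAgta
Snora24: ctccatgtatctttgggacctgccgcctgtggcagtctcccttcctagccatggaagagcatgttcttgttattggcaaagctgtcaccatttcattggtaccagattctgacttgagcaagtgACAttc
Snora7a: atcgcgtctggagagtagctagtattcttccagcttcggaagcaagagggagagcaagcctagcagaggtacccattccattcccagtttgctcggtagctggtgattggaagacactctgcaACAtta
Snora17: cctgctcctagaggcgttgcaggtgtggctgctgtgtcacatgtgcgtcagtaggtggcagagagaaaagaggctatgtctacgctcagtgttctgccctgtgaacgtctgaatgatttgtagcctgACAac
Snora69: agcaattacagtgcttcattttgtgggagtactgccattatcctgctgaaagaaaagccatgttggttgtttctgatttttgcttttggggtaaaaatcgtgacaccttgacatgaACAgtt
Snora5c: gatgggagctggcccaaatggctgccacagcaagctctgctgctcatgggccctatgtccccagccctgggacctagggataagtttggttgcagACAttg
Snord89: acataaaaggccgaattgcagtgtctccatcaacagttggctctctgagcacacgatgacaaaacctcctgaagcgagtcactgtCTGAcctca

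Mir5136 is shown because it had one of the largest decreases of a named small RNA. The hairpin (chr19:8888699-8888774, minus strand) has its mature sequence in capitals, and the mature microRNA from RefSeq (GRCm38.p6) has its seed, bases 2 to 8, in capitals. Of the 76 bases of the hairpin interval, 72 lie inside the interval of the long non-coding RNA 5730408K05Rik (chr19:8888387-8888770), so these intervals share reads and a 3′ end library does not measure the mature microRNA.
Mir5136 hairpin: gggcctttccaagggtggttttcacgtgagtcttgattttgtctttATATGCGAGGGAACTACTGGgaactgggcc
mmu-miR-5136: aUAUGCGAgggaacuacugg

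The first question was which non-coding transcripts differed in level between D6 and D0. Of 13007 intervals with enough reads in the 12 libraries, 573 were non-coding. Without 4sU, 17 of the 573 were higher at D6 and 19 lower (edgeR quasi-likelihood test, Benjamini-Hochberg adjusted p under 0.05 over all 13007), where 11.8% of all intervals were called, 6.97% higher and 4.86% lower. After 15 h of 4sU, 18 were higher and 24 lower, where 12.7% of all intervals were called, 6.45% higher and 6.25% lower. The called share of the non-coding intervals, 6.28% and 7.33%, was below that of all intervals in both sets of libraries. Both sets called 11 higher, which is 64.7% of the first list and 61.1% of the second. Both called 15 lower, 78.9% and 62.5% of the lists, and 0 were called in opposite directions. The 3 libraries of D6 lay all above or all below those of D0 for 104 of the 573 without 4sU (18.2%, against 31.9% of all intervals) and for 119 after 15 h (20.8%, against 32.6%). The median biological coefficient of variation of the 573 was 1.79, against 0.763 for the protein-coding intervals, and their median level was 2.75 against 4.92 on the log2 CPM scale. Leaving out 1 library at a time gave 26 to 33 calls without 4sU and 31 to 40 after 15 h. DESeq2 called 46 higher and 30 lower without 4sU, and 43 and 29 after 15 h, so the balance of directions turned with the tool. The counts hold the pairs of overlapping intervals of Crnde (higher) and 2010204K13Rik (lower), which carry the same reads, as 2 intervals each. With overlapping intervals summed, 16 were higher and 16 lower without 4sU, and 17 and 21 after 15 h.

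**Figure D1:**
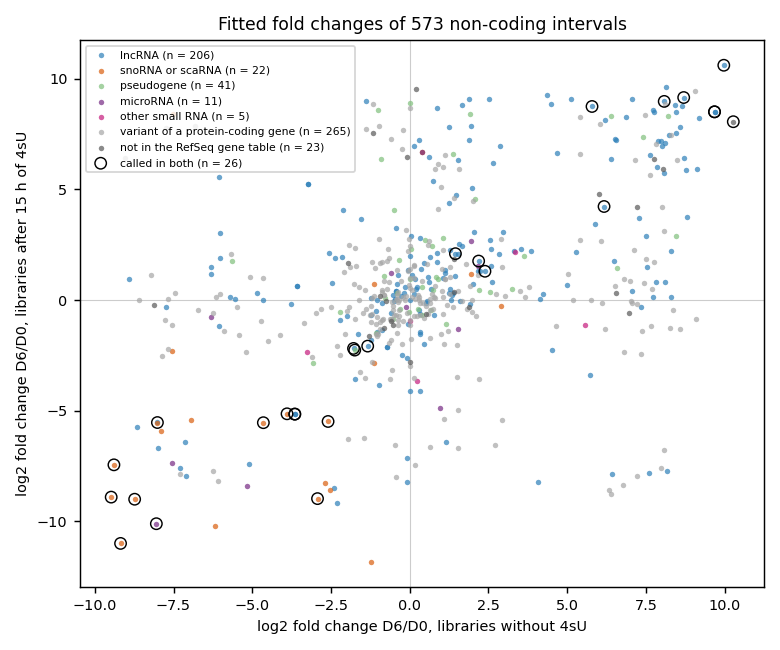
Fitted log2 fold change (D6 over D0) of the 573 tested non-coding intervals in the libraries without 4sU (horizontal axis) and after 15 h of 4sU (vertical axis), coloured by class, with the 26 intervals called in both circled. Circled small nucleolar RNAs sit at the lower left and circled long non-coding RNAs mostly at the upper right, and the fitted values of intervals with no reads in a group depend on the prior count.

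Reads on the intervals of H/ACA small nucleolar RNAs were lower at D6. Whether these 3′ end libraries measure the mature small RNA was not tested. Without 4sU, 9 of the 13 tested H/ACA intervals were called lower and 0 higher (median fitted log2 fold change -4.65, against 0.02 over all intervals). After 15 h, 12 of 13 were called lower and 0 higher (median -8.59, against 0.05). Over all intervals, 6.97% were called higher and 4.86% lower without 4sU, and 6.45% and 6.25% after 15 h. Members such as Snora17 and Snora33, with few or no reads at D6, passed the filter on low counts through D0. These medians and directions therefore partly follow from that filter. Of the 5 tested C/D intervals, 1 (Snord89) was called, higher without 4sU. Of the 4 tested small Cajal body RNAs, which guide the modification of spliceosomal RNA, 1 (Scarna9) was called, lower after 15 h.

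Snora73b, the most counted of the H/ACA RNAs, is one of the U17 family that takes part in processing the ribosomal RNA precursor. Without 4sU it had 199, 390 and 254 CPM at D0 and 23.6, 1.85 and 7.82 at D6. After 15 h it had 546, 981 and 476 at D0 and 15, 13.6 and 14.3 at D6. All D6 libraries were below all D0 libraries, and the mean CPM differed 25.3-fold without 4sU (fitted log2 -4.65 ± 0.87 SE, adjusted p = 7.9e-06; -5.77 without library 37) and 46.6-fold after 15 h (log2 -5.54 ± 0.97, adjusted p = 1.3e-06). Over all libraries of both assays, it had 130 to 923 CPM in the 24 libraries of D0 (median 207) and 0.883 to 23 in the 23 of D6 (median 2.03), with no overlap.

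Snora33 had 47, 42.7 and 26.1 CPM at D0 without 4sU, and 1 of the 3 D6 libraries had a value above 0 (0.147). The ratio of D0 to D6 in reads pooled over each group was 556, with a 95% counting interval of 99.5 to 21993. After 15 h it had 59.1, 160 and 69 against 0.183, 0.289 and 0, a ratio of 603 (167 to 4988). Of the 23 libraries of D6, 14 held no read of Snora33, while all 24 of D0 held some.

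Snora17 had 16.4, 8.57 and 19.5 CPM at D0 without 4sU and no read in the 3 libraries of D6, which is at least 74.6-fold lower against a floor of 3 reads over the group. After 15 h it had 40.4, 92.8 and 22.8 against no read, at least 222-fold lower. By the same bound Snora69 and Snora5c were at least 77.6-fold and at least 68.8-fold lower without 4sU. After 15 h the ratios of D0 to D6 were 686 (123 to 27120) for Snora69 and 194 (65.9 to 942) for Snora5c. Their adjusted p values ran from 0.0012 to 0.0064 over both comparisons, and all D6 libraries lay below all D0 libraries.

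Snora24, which lies inside the interval of its host Snhg8, had 5.02, 49.5 and 15.2 CPM at D0 and 0, 0 and 0.147 at D6 without 4sU (adjusted p = 0.0017), and 72.9, 114 and 80.1 against 5.14, 0.289 and 0 after 15 h (49.2-fold, adjusted p = 0.0065). Snora68 had 39.4, 132 and 36.9 against 15.1, 4.92 and 7.23, a 7.65-fold difference (adjusted p = 0.0094) that was lost without library 56 of D0 (log2 -2.07, adjusted p = 0.079). After 15 h it had 117, 125 and 140 against 0.550, 0 and 0. Snora75 had 58.3, 128 and 27.8 against 7.64, 8.92 and 18.4 without 4sU (6.11-fold, adjusted p = 0.043), and after 15 h 252, 479 and 228 against 0.917, 20.2 and 0.611 (44.1-fold, adjusted p = 0.00032). Snora7a, whose interval overlaps an exon of a coding transcript in GENCODE, had 14.1, 21.2 and 18 against 2.70, 0.923 and 0 (14.8-fold, adjusted p = 0.031), and 152, 160 and 51.2 against 1.10, 8.96 and 0.305 after 15 h (35.1-fold, adjusted p = 0.0053). Without 4sU the groups did not overlap for any of these 4, but the calls were lost without libraries 37 (log2 -2.36), 38 (-2.44) or 56 (-1.87) for Snora75 and without libraries 38 (-3.77) or 39 (-3.25) for Snora7a. Fitted values moved the other way too, to log2 -5.49 without library 37 for Snora7a without 4sU. After 15 h they moved from -5.53 to -9.0 without library 7 for Snora24, and without library 8 from -5.48 to -8.62 for Snora75 and from -5.14 to -7.30 for Snora7a.

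**Figure D2:**
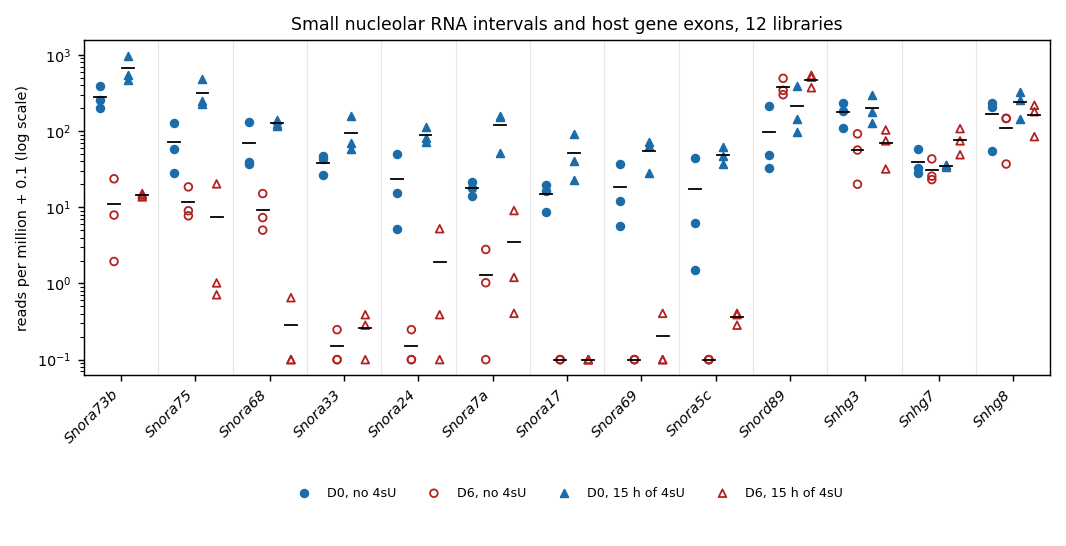
CPM plus 0.1 (log axis) of 10 small nucleolar RNA intervals and 3 host gene exons in the 12 libraries compared, with D0 in blue and D6 in red, circles without 4sU and triangles after 15 h, and bars at group means. D6 points of the 9 H/ACA intervals lie below the D0 points of the same assay, those of Snord89 lie above D0 without 4sU, and those of Snhg7 and Snhg8 overlap D0 without 4sU.

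Snora21, Snora43, Snora78 and Scarna9 were called lower after 15 h, where the dose of 4sU differed too, and not without 4sU. Snora21 had 68, 136 and 73.2 CPM at D0 after 15 h and none at D6 (at least 384-fold lower), but 22.3, 22.4 and 7.05 against 12.6, 9.53 and 0 without 4sU (adjusted p = 0.58). Scarna9 had 82.3, 89.9 and 11.4 against 0, 0.289 and 0.305 after 15 h, a ratio of 392 (108 to 3240). Snora78 had 45, 130 and 58.7 against 0, 0.289 and 0.305, a ratio of 489 (135 to 4046). Snora43 had 24.7, 63.1 and 2.78 against none after 15 h (at least 132-fold lower, adjusted p = 0.026), and lost this call without any 1 of libraries 7, 8, 9, 25 or 26 (log2 -10.34 to -9.08, adjusted p up to 0.15). The response to 4sU was called to differ between the states for 0 of the non-coding intervals, as given below.

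Summed over the 13 tested intervals, H/ACA CPM also differed among groups of D0. The sum was 1763 ± 565 after 15 h of 4sU (SD, n = 3) and 603 ± 216 in cells without 4sU. It was 225 ± 29.1, 373 ± 33 and 455 ± 120 at T1, T3 and T9 of the catabolic assay, and 411 ± 106, 602 ± 287 and 380 ± 57.1 at the same times of the anabolic assay. The D0 libraries after 15 h lay above all other D0 libraries, at 1346 to 2406. At D6 it was 32.7 ± 11.5 after 15 h and 46.7 ± 32.2 without 4sU. It was 25 ± 9.28 and 20.2 ± 14.9 at T1 and T9 of the catabolic assay, 41.7 and 90.6 in the 2 libraries of T3, and 13.4 ± 9.14, 12.5 ± 9.47 and 9.06 ± 6.23 at the times of the anabolic assay. The states did not overlap at any time point, with 194 to 2406 in the 24 libraries of D0 and 2.42 to 90.6 in the 23 of D6. The ratio of the means, D0 over D6, varied with the set of libraries. It was 12.9 without 4sU and 53.9 after 15 h, the highest of the 8 sets, and 9.01, 5.64 and 22.5 at T1, T3 and T9 of the catabolic assay. In the anabolic assay it was 30.8, 48 and 41.9 at these times.

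Snord89, a C/D RNA, had 32.8, 215 and 49.1 CPM at D0 and 301, 494 and 343 at D6 without 4sU, with no overlap. It was 3.84-fold higher at D6 (log2 1.94 ± 0.63, adjusted p = 0.023), a call lost without libraries 38 (log2 1.71), 55 (1.53) or 57 (1.62). The call was also lost in the edgeR fit of only the 6 libraries compared (log2 1.86, adjusted p = 0.078). Without library 56 of D0, the highest of its group, Snord89 was at log2 3.21 (adjusted p = 2.8e-05). In the 15 h libraries it had 98, 392 and 145 against 512, 540 and 372 (adjusted p = 0.18), with overlapping groups.

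Host transcripts of the small RNAs were measured by their own intervals. Of the 22 tested small nucleolar and Cajal body RNAs, 14 lay within a protein-coding gene of the same strand in GENCODE, and 13 pairs had a tested host interval. In 9 pairs the small RNA was called lower in at least 1 set, with Snora21 and Scarna9 called after 15 h only. In these 9 the host was called lower in 3 without 4sU and in the same number after 15 h, and higher in 0. Over all intervals, 4.86% and 6.25% were called lower. Ncl, which encodes nucleolin and holds Snora75, had 2027 ± 387 CPM at D0 and 802 ± 48 at D6 without 4sU (log2 -1.34 ± 0.29, adjusted p = 0.00013). The ribosomal protein gene Rpl32, host of Snora7a, had 1446 ± 260 and 897 ± 18.5 (log2 -0.69 ± 0.24, adjusted p = 0.036). Tbrg4, host of Snora5c, had 345 ± 40.3 and 110 ± 38 (log2 -1.65 ± 0.43, adjusted p = 0.0026). The host value was below 0 in 8 of the 9 pairs without 4sU and in 7 of 9 after 15 h. Among the hosts not called without 4sU were Rcc1 (host of Snora73b, log2 -1.44 ± 0.66, adjusted p = 0.15), Rpl23 (Snora21, -1.48 ± 0.64, adjusted p = 0.12), Rps12 (Snora33, -0.20 ± 1.61) and Rpl39 (Snora69, 1.06 ± 0.82). Without 4sU, Rcc1 had 179 ± 133 CPM at D0 and 65.7 ± 31.3 at D6, and Rpl23 81.7 ± 19.9 and 29.1 ± 13.3. Rps12 had only 11.5 ± 4.47 and 10 ± 5.66, and Rpl39 25.4 ± 23.2 and 53.2 ± 24.9. At such low levels the lack of a call does not show an unchanged host. Reads of the small RNA intervals could come from the mature RNA, a precursor or an unspliced host, and this was not tested.

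Among the listed host genes of small nucleolar RNAs that are themselves non-coding, 19 intervals of 11 genes were tested. Without 4sU 1 was lower and 0 higher (median log2 -0.58), and after 15 h 3 were lower and 0 higher (median -0.20), where 4.86% and 6.25% of all intervals were called lower. Snhg3, which holds Snora73b, had 185, 110 and 236 CPM at D0 and 56.4, 20 and 92.2 at D6 without 4sU, a 3.15-fold difference with no overlap (adjusted p = 0.041). With 15 h of 4sU it had 301, 128 and 180 against 74.5, 103 and 31.7 (adjusted p = 0.055), and the call without 4sU was lost without libraries 37 (log2 -1.65), 38 (-1.25), 55 (-1.62) or 57 (-1.39). That call was also lost in the edgeR fit of only the 6 libraries compared (log2 -1.69, adjusted p = 0.067). Snhg7, within whose RefSeq bounds Snora17 and Snora43 lie, had 33, 28.4 and 57.5 against 43.1, 25.5 and 23 without 4sU, and 35.8, 35.8 and 33.4 against 108, 48.9 and 74.5 after 15 h (adjusted p = 0.79 and 0.23). Snhg8 had 232, 54.7 and 210 against 146, 36.9 and 148, with overlapping groups (adjusted p = 0.56). Called lower after 15 h were Snhg9 (3.5-fold, adjusted p = 0.028), Snhg14 (3.05-fold, 0.040) and Snhg15 (14.8-fold, 0.044), each lost in 4 of 6 fits that left out 1 library. Those libraries were 7, 8, 9 and 25 for Snhg9 (log2 -2.01 to -1.53), 7, 9, 25 and 27 for Snhg14 (-1.71 to -1.19) and 8, 9, 25 and 27 for Snhg15 (-3.76 to -3.26), which was at -8.01 without library 7. Of 5 other settings, 5 kept the call of Snhg9, 3 that of Snhg14 and 4 that of Snhg15. The tested intervals of Snhg5, Snhg6, Snhg10, Snhg17 and Snhg18 were not called in either set.

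Long non-coding RNAs were called in both directions. Of 206 tested, 11 were higher and 6 lower without 4sU (median log2 1.09, against 0.02 over all intervals), and 14 were higher and 6 lower after 15 h (median 1.27, against 0.05). Over all 13007 intervals, 906 were higher and 632 lower without 4sU, and 839 and 813 after 15 h, and a difference between this class and the rest was not tested. On the list of non-coding RNAs known from the nervous system, 16 intervals of 8 genes were tested. Without 4sU 6 were higher and 1 (2610307P16Rik, log2 -5.72 ± 1.80, adjusted p = 0.018) lower (median 4.73), and after 15 h 7 were higher and 0 lower (median 6.87), with the Crnde pair of shared reads counted as 2 in each. The called share was 43.8% in each set, against 11.8% and 12.7% of all intervals. Crnde, Hoxb5os and Rmst, with few or no reads at D0, passed the filter on low counts through D6. These medians and directions therefore partly follow from that filter. 2610307P16Rik was not called after 15 h (adjusted p = 0.97), and without 4sU its call was lost without libraries 39 (log2 -5.31), 57 (-5.36) or 38, while it was at -6.43 without library 37. The intervals of Pantr2 and Six3os1 were not called in either set.

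Malat1, the nuclear speckle RNA, had 2094, 2829 and 2522 CPM at D0 and 7387, 5266 and 7718 at D6 without 4sU. In the 15 h libraries it had 1785, 2026 and 1532 against 6826, 6899 and 9122. It was 2.74-fold higher at D6 without 4sU (log2 1.45 ± 0.29, adjusted p = 3.9e-05) and 4.28-fold higher after 15 h (log2 2.10 ± 0.35, adjusted p = 4.2e-07), and D6 was above D0 in every library of both sets. Over all libraries it had 1466 to 2641 CPM at D0 and 3869 to 12267 at D6.

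Hoxb5os, a transcript antisense to the Hoxb cluster, was near absent at D0. It had 0.132, 0.195 and 0.141 CPM at D0 and 120, 150 and 266 at D6 without 4sU, a ratio of 1287 with a 95% counting interval of 440 to 6244 (adjusted p = 3.6e-09). With 15 h of 4sU it had 0.242, 0 and 0 against 121, 197 and 184, a ratio of 1952 (350 to 77127). In all, 35 reads were counted in the 24 libraries of D0 and 15251 in the 23 of D6.

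Pantr1, a transcript next to the neural factor gene Pou3f3, had 2 intervals called higher in both sets. The interval chr1:42648200-42648456 had 0.132, 0.390 and 10.2 CPM at D0 and 166, 295 and 142 at D6 without 4sU (56.5-fold, adjusted p = 0.00021), and its fitted log2 moved from 5.79 to 9.55 without library 57 of D0. The interval chr1:42666841-42667003 had 0.132, 0.195 and 0.282 against 53.2, 95.6 and 36.6 (305-fold, adjusted p = 3.1e-06). After 15 h they were 461-fold and 547-fold higher (the latter with an interval of 187 to 2653), and no D6 library overlapped D0. Without library 26 of D0, the fitted log2 of the latter moved from 8.98 to 12.37.

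Miat, known from retinal and neural precursors, had 2.51, 0.195 and 0 CPM at D0 and 55.3, 68.9 and 84.8 at D6 without 4sU (77.2-fold, adjusted p = 0.0010), and 0, 15.8 and 10 against 142, 144 and 198 after 15 h (18.8-fold, adjusted p = 0.0093). The fitted log2 of Miat moved from 6.17 to 9.29 without library 55 of D0 and, after 15 h, from 4.23 to 5.04 without library 26. Crnde, whose pair of overlapping intervals held the same reads and counts as 1 locus, had no read at D0 and 2.25, 33.8 and 26.7 at D6 without 4sU, at least 137-fold higher. In the 15 h libraries it had 0, 0.222 and 0 against 26.2, 16.2 and 71.4, a ratio of 434 (77.6 to 17201). Rmst, a partner of Sox2 in neurogenesis, had no read at D0 after 15 h and 6.97, 12.4 and 40.9 at D6, at least 71.9-fold higher (adjusted p = 0.043), and this call was lost in every fit that left out 1 of the 6 libraries (fitted log2 8.62 to 10.01, adjusted p up to 0.16).

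2900060B14Rik had 144, 360 and 178 CPM at D0 and 1076, 1737 and 759 at D6 without 4sU, 5.24-fold higher with no overlap (adjusted p = 0.00017). With 15 h of 4sU it had 404, 834 and 494 against 1544, 1835 and 891, 2.47-fold higher (adjusted p = 0.022), and this call was lost without libraries 7 (log2 1.24), 8 (1.08), 25 (1.12) or 27 (1.20). Gm3414 was 4.58-fold and 3.39-fold higher (adjusted p = 0.013 and 0.041), the second call lost in every fit that left out 1 library (log2 1.47 to 2.0). Its first call was lost in the edgeR fit of only the 6 libraries compared (log2 2.15, adjusted p = 0.057). 5330434G04Rik had 0.396, 0.195 and 0.141 against 44, 44.3 and 39.2 without 4sU (174-fold, adjusted p = 0.0022), and 5.81, 0 and 2.78 against 24.6, 62.7 and 24.7 after 15 h (adjusted p = 0.060).

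**Figure D3:**
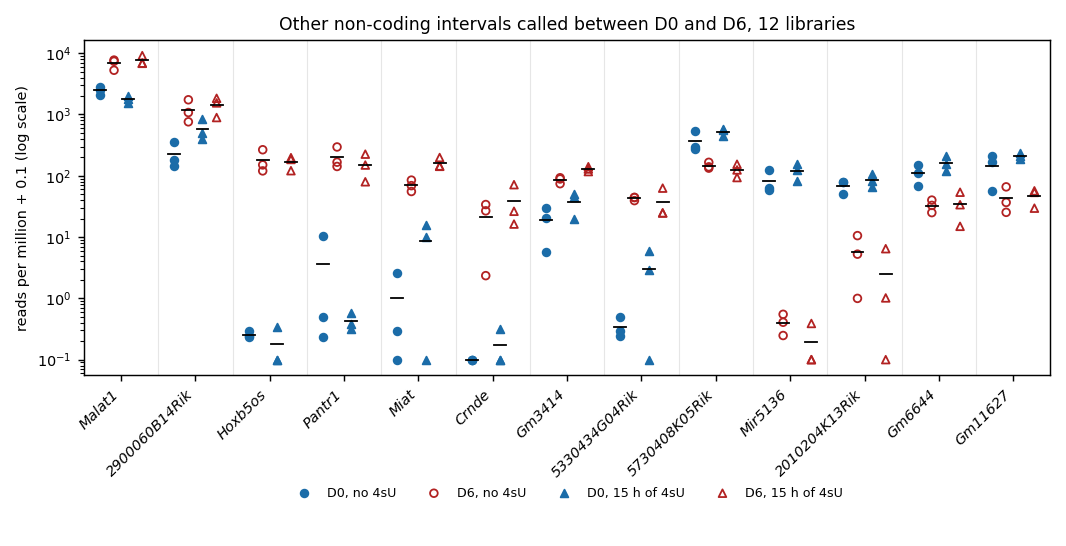
CPM plus 0.1 (log axis) of 13 other called non-coding loci in the 12 libraries, drawn as for the small nucleolar RNAs, with the interval of most reads where a gene had several. The first 8 from the left, Malat1 to 5330434G04Rik, lie higher at D6, and the last 5, 5730408K05Rik to Gm11627, lie mostly lower at D6.

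Other transcripts were lower at D6. Mir5136 had 63.7, 125 and 58.4 CPM at D0 and 0.449, 0.307 and 0.147 at D6 without 4sU (273-fold, adjusted p = 1.3e-06), and 126, 80.6 and 155 against 0, 0.289 and 0 after 15 h, a ratio of 1437 (258 to 56800). The overlapping 5730408K05Rik had 291, 547 and 269 against 140, 133 and 166 without 4sU (2.52-fold, adjusted p = 0.0048) and 560, 570 and 442 against 124, 154 and 93.4 after 15 h (4.23-fold, adjusted p = 7.5e-05). Of the 11 tested microRNA intervals, Mir5136 was the 1 that was called in each set (9.09%, against 11.8% and 12.7% of all intervals).

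2010204K13Rik, with a pair of overlapping intervals that held the same reads, had 49.5, 78.1 and 78.3 CPM at D0 and 0.899, 10.5 and 5.16 at D6 without 4sU (12.5-fold, adjusted p = 0.024; lost without libraries 37, log2 -3.14, or 39, -3.61, and at -4.46 without library 38). In the 15 h libraries it was 35-fold lower (adjusted p = 0.0033), with the fitted log2 moving from -5.15 to -4.53 without library 7 and to -7.68 without library 8. Gm11627 was 3.43-fold and 4.55-fold lower (adjusted p = 0.015 and 0.0035), and the pseudogene Gm6644 3.35-fold and 4.78-fold lower (adjusted p = 0.023 and 0.0037). Without 4sU, Gm11627 overlapped between the groups and lost its call without libraries 37 (log2 -1.69), 39 (-1.51) or 55 (-1.40), and Gm6644 lost its call without libraries 37 (-1.59), 39 (-1.75) or 56 (-1.43). Rny1, a Y RNA bound by the Ro protein, had 27.4, 55.7 and 16.9 against 5.39, 0 and 4.72 without 4sU (adjusted p = 0.038), a call lost without libraries 37 (log2 -3.73), 38 (-2.72), 39 (-3.58) or 56 (-2.68). It had 61.7, 150 and 52.6 against 7.52, 31.5 and 12.5 after 15 h (adjusted p = 0.12).

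On the list of nuclear and housekeeping RNAs, 14 intervals of 10 genes were tested. Malat1 was the 1 called higher in each set, and Rny1 the 1 called lower, without 4sU only. The called shares of the 14, 14.3% without 4sU and 7.14% after 15 h, were near those of all intervals (11.8% and 12.7%). The intervals of Firre, Neat1, Norad, Rn7sk, Rnu11, Rpph1, Terc and Tug1 were not called. The Tug1 interval with the most reads had 50.1, 45.6 and 6.49 CPM at D0 and 89.6, 72 and 52.8 at D6 without 4sU, with no overlap (adjusted p = 0.30). Of 6 tested intervals of imprinted RNAs (H19, Peg13 and Snhg14), 1 of Snhg14 was called, lower after 15 h (16.7%, against 12.7% of all intervals). H19 (chr7:142575530-142576114) had 21.4, 97 and 23.4 against 11.5, 19.1 and 11.7 without 4sU (adjusted p = 0.46), and 10.2, 37.5 and 9.18 against 4.59, 0 and 0 after 15 h (adjusted p = 0.12). No interval of the listed X inactivation centre, pluripotency or microRNA host RNAs had enough reads for a test. Of these lists, 2 of 4, 8 of 32 and 2 of 16 genes had a non-coding interval here, and the others were not measured.

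Of 265 tested non-coding variants of protein-coding genes, 2 were called higher and 1 lower in each set (1.13%, against 11.8% and 12.7% of all intervals; median log2 0.00 in both). Ankrd11 (chr8:122889639-122896156) had 1060, 1852 and 1008 CPM at D0 and 961, 1290 and 1095 at D6 without 4sU, with overlapping groups (adjusted p = 0.68). Brd2 (chr17:34113932-34114177) had 351, 562 and 427 against 370, 423 and 408 (adjusted p = 0.81). Of 41 tested pseudogene intervals, 1 was higher and 1 lower without 4sU (4.88%), and 0 higher and 1 lower after 15 h (2.44%). Nutf2-ps1, which the RefSeq gene table used here did not list and which was therefore outside that class, lies on a coding exon in GENCODE and resembles Nutf2 in sequence as its processed copy. It had 1274, 1431 and 1499 against 1043, 867 and 900 without 4sU (1.5-fold lower, adjusted p = 0.062) and 1659, 1400 and 1676 against 886, 773 and 836 after 15 h (1.9-fold lower, adjusted p = 0.0029). D6 was below D0 in every library of both sets. Rps15a-ps6 had 860, 696 and 659 against 958, 861 and 832 (adjusted p = 0.54).

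Whether 4sU itself moved the levels was tested within each state. At D0, 0 of the 573 were called between 15 h of 4sU and none (edgeR; 0.0308% of all intervals were called), with 63 at an unadjusted p under 0.05 (11% of them, against 4.37% of all intervals) and 8 called by DESeq2. At D6, 0 were called (0.0384% of all intervals), with 46 at an unadjusted p under 0.05 (8.03%, against 5.74%) and 8 by DESeq2. The difference between these responses gave 0 calls (0.00769% of all intervals), with 54 at an unadjusted p under 0.05 (9.42%, against 5%) and 9 by DESeq2. Over all intervals DESeq2 called 80 at D0, 89 at D6 and 53 for the difference. The share at an unadjusted p under 0.05 was thus above that of all intervals in each of these tests, and 0 calls do not show that levels were alike with and without 4sU. For the H/ACA RNAs, 12 of 13 fitted values were above 0 at D0 (median log2 1.65, 4 of 13 at an unadjusted p under 0.05), as the sums above also gave. For the difference between the states in this response, 9 of 13 were below 0 (median log2 -1.24, 4 of 13 at an unadjusted p under 0.05).

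Labelling was then measured as the conversion rate, the percent of covered T positions read as C. Tests took intervals in which the libraries averaged 1000 or more covered T positions. After 15 h, the median rate of the non-coding intervals was 1.28% at D0 (n = 152) and 4.52% at D6 (n = 167), against 1.32% and 4.39% for protein-coding intervals. Rates rose over those of unlabelled cells in 73 of 169 non-coding intervals at D0, where 52% of all intervals were called, and in 141 of 169 at D6, where 79.2% were called (edgeR quasi-likelihood test on conversions per covered T). Leaving out library 56 or 57 of D0 gave 46 or 48 calls. After 9 h of uptake, 110 of 190 were called at D0 (64.7% of all intervals) and 96 of 145 at D6 (66.5%), with 56 calls without library 39 of D6. Over all intervals that fit called 3780, against 6008 with all libraries. Of 12 tested H/ACA intervals at D0, 9 were labelled after 15 h. Snora73b rose from 0.00469, 0.00948 and 0.00398% to 1.17, 2.02 and 0.680% (adjusted p = 0.00044), with no overlap.

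Some intervals showed conversions without 4sU. The rate in unlabelled cells was over 0.5% in 23 of 195 non-coding intervals at D0 (11.8%, against 9.90% of protein-coding ones) and in 22 of 183 at D6 (12%, against 9.88%). Snhg9 stood at 8.91, 9.19 and 8.83% at D0 and 8.86, 9.45 and 9.06% at D6 without 4sU. With 15 h of 4sU it stood at 11, 9.37 and 9.43% and at 10.5, 9.88 and 10.5%, and it was not called labelled in either state (adjusted p = 0.58 and 0.57). Snhg8 stood at 3.78, 0.378 and 4.29% at D0 and 4.41, 3.45 and 4.18% at D6 without 4sU, and 5730408K05Rik at 0.798, 1.02 and 0.533% and at 2.19, 1.17 and 1.87%. These rates were not subtracted, and whether they come from sequence variants of the cell line was not tested.

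After removal of 4sU, the share of label left at 9 h was lower or higher on non-coding than on protein-coding intervals, depending on the weighting. With every interval weighted alike, the median share left was 13% at D0 (n = 142) and 10.8% at D6 (n = 131), against 17.4% and 12% for protein-coding intervals. Over all covered T positions together, 38.9% ± 2.6 was left at D0 and 34.6% ± 3.4 at D6 (SD, n = 3 each), against 29% ± 1.2 and 18.7% ± 1.4 for protein-coding intervals, and 42% ± 3.2 and 25.1% ± 2 without Malat1. The pooled rates in unlabelled cells, 0.317% at D0 and 0.207% at D6 against 0.169% and 0.164%, were not subtracted. The loss was called in 25 of 177 non-coding intervals at D0 (25.9% of all intervals) and in 43 of 172 at D6 (35.5%), and a rise in 0 in both states. The D6 count fell to 6, 8 and 12 without libraries 7, 8 and 9 of T0, and the D0 count to 15 without library 34. Calls over all intervals fell in the same fits, from 3209 to 1083, 1038 and 1346 at D6 and from 2490 to 1644 at D0. At D0 the called intervals included 6 of 12 tested H/ACA RNAs. Snora73b fell from 1.17, 2.02 and 0.680% to 0.130, 0.0308 and 0.0540% (5.54% ± 4 left, SD, n = 3, adjusted p = 2.7e-08), and Snora33 and Snora69 had 0% left in all 3 libraries.

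Malat1 lost its label at D0 and kept most of it at D6. At D0 its conversion rate was 1.60, 1.07 and 1.11% after 15 h, 0.786, 0.756 and 0.831% at T3 and 0.172, 0.114 and 0.186% after 9 h, which left 12.5% ± 3. At D6 it was 2.82, 2.76 and 2.63% after 15 h, 2.84 and 2.30% at T3 and 1.84, 1.70 and 1.47% after 9 h, which left 61% ± 6.7. The rate at 9 h lay below that at 0 h in all libraries of each state.

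The loss of Malat1 was log2 -3.0 at D0 (adjusted p = 5.7e-15) and -0.71 at D6 (adjusted p = 0.00026). The difference between the states was log2 2.29 ± 0.33 SE (adjusted p = 2e-08). It kept its call in each of 12 fits that left out 1 library (2.08 to 2.43), and lost it in a slope over all 4 time points at the hours of the study's methods (adjusted p = 0.26) but not at those of the labels (adjusted p = 6.3e-09). Of 8176 intervals tested for this difference, 0.281% were called, 0.0122% (Malat1 alone) with less loss at D6 and 0.269% with more. Of 122 non-coding intervals tested, 2 were called. Unlabelled cells had 0.0337, 0.00562 and 0.0247% at D0 and 0.0512, 0.0670 and 0.0168% at D6. During uptake Malat1 reached 0.864, 1.13 and 1.05% at D0 and 1.56, 1.63 and 1.06% at D6 after 9 h. Its level averaged 7849 ± 1454 CPM at T0 and 10850.2 ± 1190.5 at T9 of the D6 catabolic assay (SD, n = 3 each), with overlapping libraries, and 1782 ± 164 and 1900.4 ± 355 at D0.

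Nutf2-ps1 was the other one, in the opposite direction. At D0 its rate was 1.52, 1.5 and 1.25% after 15 h and 0.763, 0.940 and 0.897% after 9 h, which left 60.9% ± 6.5. At D6 it was 5.46, 6.14 and 4.94% and then 1.16, 1.05 and 1.48%, which left 22.3% ± 4.1. The difference was log2 -1.45 ± 0.32 SE (adjusted p = 0.0081). The call was kept in 10 of 12 fits and lost without libraries 27 (log2 -1.37) or 36 (-1.43) of D0, with adjusted p up to 0.060. It was also lost in the slope over 4 time points at the methods' hours (log2 -0.16 per hour, adjusted p = 0.69), and kept in the slope at the labels' hours (-0.17, adjusted p = 0.0073). Its rate without 4sU, 0.306, 0.395 and 0.312% at D0 and 0.192, 0.263 and 0.4% at D6, was not subtracted.

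**Figure D4:**
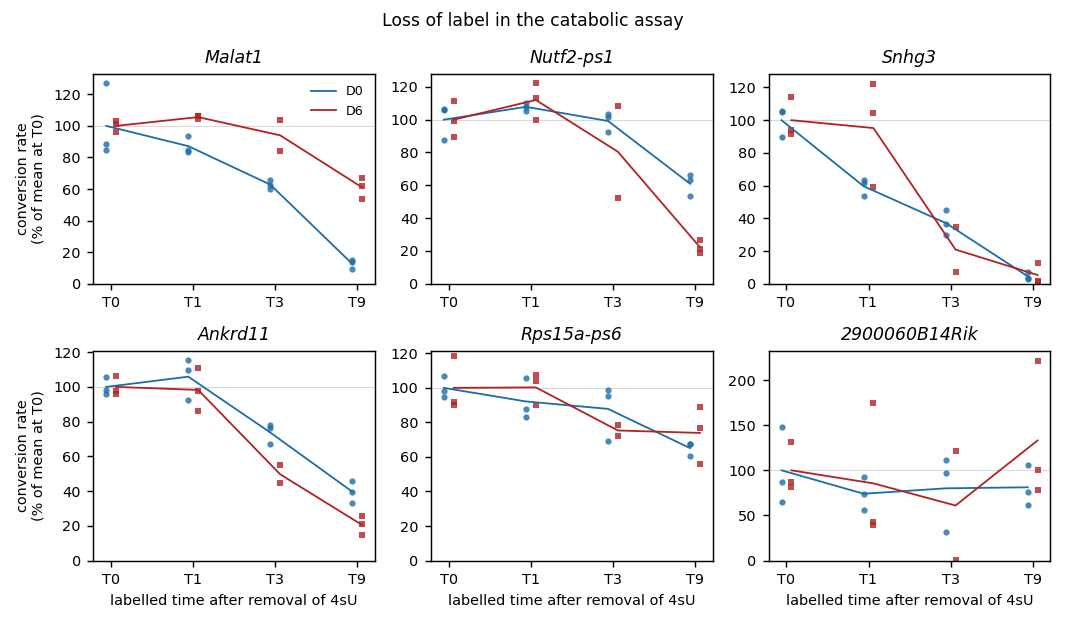
Conversion rate as percent of the mean at T0 for 6 non-coding intervals in the catabolic assay at D0 (blue) and D6 (red), with a point for each library and lines through group means at the labelled time points. Malat1 ends at 12.5% at D0 and 61% at D6, Nutf2-ps1 at 60.9% and 22.3%, and 2900060B14Rik at 81.2% and 133%, where no loss was called.

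For the other 120 non-coding intervals the difference between the states was not called. Snhg3 lost nearly all label in both states, from 2.12, 2.50 and 2.49% to 0.0849, 0.165 and 0.0740% at D0 (4.56% ± 2.1 left) and from 6.50, 6.66 and 8.11% to 0.0946, 0.899 and 0.139% at D6 (5.33% ± 6.4 left). The difference was log2 0.20 (adjusted p = 0.99). Ankrd11 kept 39.6% ± 6.3 and 20.4% ± 5.5 (log2 -0.95 ± 0.41 SE, adjusted p = 0.36), with rates of 0.332 to 0.731% at D0 and 0.447 to 0.544% at D6 without 4sU that were not subtracted. Cep57 kept 5.49% ± 3.8 and 6.06% ± 4.6. The pseudogenes Rps15a-ps6 (65.1% ± 4.1 and 73.9% ± 17) and Gm12338 (65.2% ± 25 and 71.5% ± 35) kept most of their label in both, without subtraction of the 0.0987 to 0.353% and the 0.0047 to 0.528% found without 4sU. Whether reads on these single-exon pseudogenes come from the coding transcripts they resemble was not tested. The exon of Brd2 kept 1.06% ± 0.28 and 3.84% ± 6.2, while Hoxb5os, tested at D6 only, kept 3.34% ± 4.3 (adjusted p = 0.030).

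2900060B14Rik took up little label, called over unlabelled cells in both states (adjusted p = 0.042 at D0 and 0.0098 at D6), and its loss was not called. Its rate was 0.475, 0.630 and 1.08% after 15 h and 0.448, 0.769 and 0.555% after 9 h at D0 (81.2% ± 22 left). At D6 it was 0.855, 0.571 and 0.530% and then 1.44, 0.652 and 0.509% (133% ± 77 left) (adjusted p of the loss 0.58 and 0.39). Intervals with at least 5000 covered T positions at both times and a rate under 0.5% without 4sU numbered 29 at D0 and 29 at D6, ranked separately in each state and not all the same. It ranked 27 from the lowest share left at D0 and 29 at D6. At the other end of this ranking, Pum3 (0.790% ± 0.79), Gm11627 (0.979% ± 0.99) and Brd2 kept the least at D0, and Pafah1b1 (0%) and Gm3414 (3.56% ± 4.2) at D6. Of the 116 non-coding intervals with a share in both states, 56 kept more at D6 and 58 less.

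**Figure D5:**
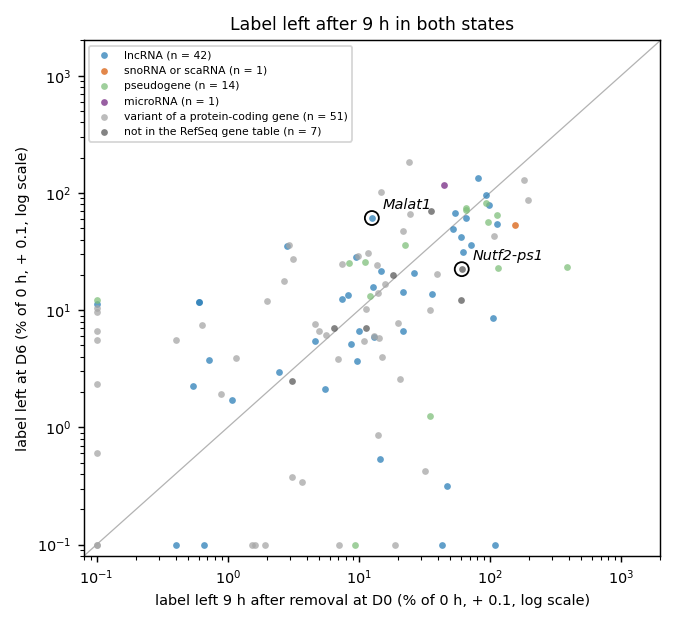
Label left 9 h after removal of 4sU, as percent of the rate at 0 h plus 0.1 (log axes), at D0 and D6 for the 116 non-coding intervals with a value in both states, coloured by class, with the line of equality. The circled intervals are the 2 called to differ, with Malat1 above the line (12.5% and 61%) and Nutf2-ps1 below it (60.9% and 22.3%).

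Half-lives were fitted as single exponentials and kept where R squared was over 0.6 and the half-life at most 5000 min. Decay half-lives were kept for 18 of 172 non-coding intervals fitted at D0 and 15 of 158 at D6 (10.5% and 9.49%, against 15.9% and 18.1% of protein-coding intervals). Synthesis half-lives were kept for 14 of 169 and 9 of 154 (8.28% and 5.84%, against 22.9% and 10.4%). With no R squared criterion, 136 (D0) and 139 (D6) decay half-lives would be kept. Leaving out library 27 kept 29 decay half-lives at D0, and leaving out library 9, 11 or 12 kept 24, 26 or 29 at D6. For synthesis at D6, leaving out library 39, 45 or 53 kept 4, 22 or 16.

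The median half-life of the kept intervals moved with the settings, and so did its order against that of protein-coding intervals. For decay it was 207 min in D0 cells (281 for protein-coding intervals) and 177 min in D6 cells (221). It was below the protein-coding median in all fits without 1 library, at 137 min without library 25 of D0. With at least 5000 covered T positions it was 338 against 295 min at D0, and with no R squared criterion 336 against 316 min at D6. The synthesis medians were 356 min for D0 (422 for protein-coding intervals) and 320 min for D6 (378), and stood above the protein-coding median in 8 of 15 fits without 1 library at D0 and in 8 of 15 at D6. Without library 55 of D0 it was 598 min, and without library 43, 52 or 54 of D6 it was 530, 554 or 505 min. At the hours of the labels the decay medians were 203 min at D0 (203 for protein-coding intervals) and 124 min at D6 (137), and the synthesis medians were 214 (D0) and 197 min (D6).

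These ranks are among the kept fits alone. Intervals that kept more label at 9 h, such as Rps15a-ps6, Gm12338 and 2900060B14Rik in both states, Nutf2-ps1 at D0 and Malat1 at D6, had no decay half-life that met the criteria. At D0 the longest decay half-lives among the 18 kept were those of 5730408K05Rik (825 ± 182 min, SE of the fit), Ankrd11 (643 ± 138) and Malat1 (361 ± 71.3), and the shortest those of 1500011B03Rik (chr5:114808196-114809331, 91.8 ± 33.4), Snhg5 (chr9:88522484-88522897, 106 ± 42.4) and 1700052K11Rik (107 ± 26.2). Another interval of 1500011B03Rik, chr5:114812800-114813205, kept 72.1% ± 36.8 (SD) of its label after 9 h at D0 and 36% ± 13.7 at D6. At D6 the longest among the 15 kept were those of Snhg8 (785 ± 175), Ankrd11 (374 ± 76.8) and Snhg3 (256 ± 76; 5.33% of its label left at 9 h), and the shortest those of Pum3 (56.5 ± 28.3), Mrpl15 (85.4 ± 38.9) and Gm16523 (91.7 ± 45.6). The rates without 4sU given above for Snhg8 at D6 (3.45 to 4.41%) and for 5730408K05Rik at D0 (0.533 to 1.02%) were not subtracted, and their part in these ranks was not tested. The same holds for Ankrd11, with 0.520, 0.332 and 0.731% at D0 and 0.447, 0.544 and 0.467% at D6 without 4sU.

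Malat1 had a synthesis half-life of 438 ± 86.4 min (D0) and of 804 ± 152 min (D6), the longest kept at D6, ahead of Nutf2-ps1 (601 ± 114) and Firre (505 ± 146). No decay half-life of Malat1 met the criteria at D6. At D0 the longest synthesis half-lives were those of a second Ankrd11 exon, chr8:122915901-122916045 (1958 ± 342), 2610307P16Rik (699 ± 98) and Gm8615 (685 ± 96.4), and the shortest those of Gm11627 (141 ± 63.3), Cep57 (192 ± 55.3) and a Brd2 exon, chr17:34113570-34113832 (217 ± 65.3). At D6 the shortest were those of NR_033219.1 (189 ± 86.5), Gm8615 (216 ± 85.6) and Ankrd11 (276 ± 44). Snora73b had a synthesis half-life of 317 ± 70.1 min at D0.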

How the data were processed

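Each of the 47 libraries came as 1 table of SLAMdunk 0.3.3 (per the file headers), which the authors made from QuantSeq 3′ reads aligned to mm10 (per the labels). It lists per interval the deposited counts of reads, of sequenced T positions and of T>C conversions. The authors' conversion fraction and CPM in the same tables were not used, and nor were lengths except for description. Groups came from the sample labels, and none was left unassigned.

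CPM in the text is read counts over the library size scaled by TMM (trimmed mean of M values), except ranges over all libraries, group sums and time courses, which are over the plain total in all intervals. Counts of the 12 T0 libraries were filtered for low counts and tested with edgeR 4.0.16 (quasi-likelihood, R 4.3.3) in 1 fit of 4 groups, with Benjamini-Hochberg adjustment over all intervals and a threshold of 0.05. Conversion counts were tested likewise with the logarithm of covered T positions as offset, for intervals averaging at least 1000. Folds are ratios of the mean CPM of the groups, while fitted log2 values come from the model and need not equal their logarithm. The SE given with a fitted log2 value was worked back from the p-value of its test through a normal quantile. It is therefore no measure of precision apart from that p-value. Ratios with 1 to 3 reads in a group, and bounds, use reads pooled over the group. Intervals for such ratios are 95% counting intervals, a group without reads was set to a floor of 3 reads, and both cover counting error only. Half-lives were least-squares exponentials at the hours of the study's methods (0, 3, 6 and 9), which differ from the labelled times (0, 1, 3 and 9). The study's methods state 15 h of labelling in the catabolic assay in 1 passage and 13 h in another, and 15 h is used in the text. Other work used Python 3.11.15 and scipy 1.17.1. DESeq2 1.42.0, other filters, scalings and hours, and leaving out each library were the alternatives. The tests were run on simulated data with known answers before use. No 2 libraries held equal counts (0 pairs).

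Coordinates are those of the files. Sequences came from GENCODE M21 transcripts and RefSeq tables (GRCm38.p6), matched by coordinates for 7544 intervals, where the T count equalled the deposited one in 7544. The genes named are the members of the lists that passed the filter, up to 5 called intervals per direction and test with the smallest p, the 10 with most reads and the 3 longest and 3 shortest half-lives per state and assay. Transcripts, lists and tests were chosen with earlier results of these data known. The labels call the libraries biological replicates without naming cultures, so p-values measure the spread between these libraries.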

Additional observations from a re-analysis of the deposited data

Results flagged for a closer look

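The difference between the states in label loss, D6 minus D0, was past the test's threshold for 2 non-coding transcripts. For Malat1 it was 2.29 on the log2 scale, with less loss at D6 in a comparison of 3 libraries per time and state. For Nutf2-ps1 it was -1.45, with more loss at D6, and its interval lies on a coding exon in GENCODE, so its reads cannot be told apart from those of the coding transcript. The dose of 4sU was 20 µM at D0 and 500 µM at D6, so state and dose cannot be told apart in either value.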

How the results depend on the processing

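Among called reads differences of single intervals, 163 of 216 fits that left out 1 library kept the call without 4sU and 191 of 252 after 15 h, other settings kept 161 of 171 and 196 of 201, and 0 reversed. Without 4sU, Gm11627, Rny1 and Snora7a each kept their call in 4 of 5 other settings. The fitted value moved by over 1.5 times in at least 1 fit without a library for 18 of 35 called intervals without 4sU and 23 of 41 after 15 h, with the Crnde pair counted once. DESeq2 called 76 intervals without 4sU (46 higher, 30 lower), 72 after 15 h (43 higher, 29 lower), 8, 8 and 9 for the 3 tests of the response to 4sU, and 51 for label loss at D0. Without a filter on low counts, the 3 tests of the response to 4sU called 4, 3 and 3. With at least 5000 covered T positions, 39 (D0) and 39 (D6) were labelled after 15 h, 36 and 26 after uptake, and 19 lost label at D6. With at least 300, 219 were labelled after 15 h and 160 after uptake at D6. The slope over 4 time points at the methods' hours called 0 state differences, where Malat1 had 0.22 per hour (adjusted p = 0.26), and at the labels' hours 0.25 (adjusted p = 6.3e-09). Decay half-lives were kept for 40 (D0) and 66 (D6) with 0 and 9 h only, 9 and 6 with at least 5000 positions, 136 and 139 with no minimum of R squared, and 26 at D6 at the labels' hours. Synthesis half-lives were kept for 28 and 25 with 0 and 9 h only, 39 and 25 at the labels' hours, 162 and 147 with no minimum, and 4 at D6 with at least 5000 positions. The causes of these moves were not tested, except that the 5000 minimum leaves fewer intervals.

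Leaving out 1 library at a time gave 26 to 33 reads calls without 4sU, 31 to 40 after 15 h, and 0 to 2, 0 to 2 and 0 to 1 for the response to 4sU. It gave 46 to 76 (D0, with 46 and 48 without libraries 56 and 57) and 107 to 140 (D6) labelled after 15 h, 90 to 100 and 56 to 101 (lowest without library 39) after uptake, 15 to 27 (lowest without library 34) and 6 to 51 (6, 8 and 12 without libraries 7, 8 and 9) for loss, and 1 to 3 for the state difference. In the fits whose library is named here, the calls over all intervals fell too, as given above. Kept half-lives numbered 15 to 29 and 15 to 29 for decay and 11 to 20 and 4 to 22 for synthesis. No paired analysis was possible because the replicate numbers are library numbers and no groups share them.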
